A study of Mus musculus with 4 samples.

Results

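Peaks of N6-methyladenosine (m6A) in 3' untranslated regions (3' UTRs) were taken from the 2 peak lists over input as the rows whose annotated region was exactly the 3' UTR. They numbered 4215 of 15417 peaks in the Mettl3 shRNA list, in 1663 genes, and 4764 of 15439 peaks in the control shRNA list, in 1945 genes. The cells were mouse embryonic fibroblasts (MEFs) expressing the oncogenes E1A and HRasV12. One culture carried an shRNA against Mettl3 and the other a control shRNA (against luciferase, by its sample title). Both were kept for 6 h in 0.2 µg/ml doxorubicin, which breaks DNA. The m6A libraries were made from purified mRNA by eCLIP, in which an antibody is crosslinked to the RNA and the bound fragments are sequenced, and the input libraries from total RNA. Each condition had 1 m6A library and 1 input library, so the spread between replicates is unknown, no test of the conditions could be made, and the 95% intervals (exact Clopper-Pearson) cover counting error only. Doxorubicin was given to both conditions, and untreated cells were not analysed here, so no response to the drug is measured.

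Mettl3 is the catalytic subunit of the nuclear complex that methylates adenosines in mRNA, and it acts mostly at the sequence called DRACH. In mammalian mRNAs m6A gathers around the stop codon and in the 3' UTR, the stretch after the coding sequence that also carries microRNA sites, AU-rich elements and the signals for polyadenylation. Reader proteins of the YTH family bind m6A there, and Ythdf2 is known for directing such mRNAs to deadenylation and decay. Other proteins of the complex are Mettl14, Wtap, Virma and Cbll1.

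Both libraries carried 3' UTR peaks in 2 of the 10 fibroblast markers, the growth factor receptors Pdgfra and Pdgfrb, and in 0 of the 8 haematopoietic, 5 epithelial, 4 endothelial and 6 neural markers. The collagen genes among the fibroblast markers had no listed 3' UTR peak. Coding-sequence peaks were listed for 2 fibroblast and 2 neural markers after knockdown, and for 1 fibroblast and 0 neural markers in the control. The lists stop at a log2 fold of 3 over input, so a site missing from a list can still lie above input. Read depths were not analysed here. A fold over input compares m6A fragments with RNA input, but a peak also needs enough fragments, so less methylation and less RNA of a gene cannot be told apart where a peak is missing.

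Short stretches of 3' UTR peaks could be shown where the 300-base windows around gene starts of RefSeq (GRCm38.p6, the assembly that mm10 names) happen to cross such a peak on the same coordinates. This held for 7 peaks of the Mettl3 shRNA list, 15 of the control list and 7 of the comparison list, so the examples were set by what the windows cover and not by the size of their change. DRACH is written here as A, G or T, then A or G, then A, then C, then A, C or T, and it was searched on the strand of the peak only. The sites below show 1 gene listed only after Mettl3 knockdown (Rab36), 1 site listed only after knockdown in a gene with 3' UTR peaks in both lists (Cd276), 2 sites listed in both libraries (Mvb12b, Lmln), 1 whose region label changed (Chml) and 3 that the authors called higher in the control (Dhrs13, Mrpl43). They are given from 5′ to 3′ along the mRNA, with a DRACH motif in capitals.
Rab36, chr10:75052984-75053012, plus strand: ctggctctcccaGGACTctggagctccat
Cd276, chr9:58526166-58526194, minus strand: tacttttccaatGGACTtaattcccatca
Mvb12b, chr2:33733233-33733261, minus strand: cctgcctccctgGGACCgttgttcataat
Lmln, chr16:33123738-33123766, plus strand: ctgtccacagtaGGACTgtgaagagtgga
Chml, chr1:175688478-175688506, minus strand: gttaaaagcttaGGACTtaaaaactcagt
Dhrs13, chr11:78037719-78037747, plus strand: aagtcagggcagGAACTggggttttgagc
Mrpl43 first site, chr19:45005566-45005594, minus strand: tgagataaagaaGAACCttttcctttgcc
Mrpl43 second site, chr19:45005450-45005478, minus strand: acacttgtacaaGGACCgtgttttctgaa

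The peak of Rab36, a Rab family GTPase gene, had a log2 fold of 3.48 over input after Mettl3 knockdown, and no control peak lay there. Mvb12b, a subunit gene of the ESCRT-I sorting complex, had 3.61 at its site in the Mettl3 shRNA list and 3.70 in the control list. The Lmln site, in a leishmanolysin-like peptidase gene, had 3.52 in the Mettl3 shRNA list and 3.07 in the control list, so each of these sites was listed in both libraries. The Cd276 site, in the gene of an immune checkpoint protein, had 3.11 in the Mettl3 shRNA list, close to the listing limit, and no control peak. The Chml site, in a Rab escort protein gene, had 4.22 in the Mettl3 shRNA list and 3.80 in the control list, but the authors labelled it intronic in the Mettl3 shRNA list and 3' UTR in the control list. The Dhrs13 site, in a dehydrogenase gene, was listed only in the control, at 3.09, and its difference in the authors' deposited table, control over Mettl3 knockdown, was 1.16. Both Mrpl43 sites, in a mitochondrial ribosomal protein gene, were in neither list over input and had differences of 1.35 and 0.88 in the authors' deposited table. A DRACH motif is common: it was found in 91.0% of the RefSeq windows read over 140 bases, the covered length of the Rab36 peak, while GGACT was found in 12.6% of them. A match is therefore a description of these sites and not evidence of methylation at that base.

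Fewer 3' UTR bases were listed after Mettl3 knockdown, while coding sequence held the same amount. The 3' UTR peaks covered 427973 bases in the Mettl3 shRNA list and 497509 in the control list, a ratio of 0.860. Coding-sequence peaks covered 1215612 bases in the Mettl3 shRNA list and 1215919 in the control list, a ratio of 1.000. By number of peaks, the ratio of Mettl3 shRNA to control was 0.885 in the 3' UTR and 1.06 in coding sequence. The lists had nearly equal numbers of peaks in all, and the ratio of all listed bases was 0.956.

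The lower total lay in 3' UTR peaks near the listing limit. When the log2 fold had to reach 4, the 3' UTR held 135238 bases in the Mettl3 shRNA list and 136228 in the control list, a ratio of 0.993. Coding sequence held 403681 such bases in the Mettl3 shRNA list and 284391 in the control list, a ratio of 1.42. Relative to coding sequence the 3' UTR thus had 0.860 times the control value as listed and 0.699 times at this threshold. The median log2 fold of listed 3' UTR peaks was 3.86 in the Mettl3 shRNA list (quartiles 3.39 and 4.47) and 3.76 in the control list (3.35 and 4.30). In coding sequence the medians were 3.81 in the Mettl3 shRNA list and 3.66 in the control list. Peaks below the listing limit do not enter, so these medians cannot show whether folds fell. Median lengths of 3' UTR peaks were 89 bases in the Mettl3 shRNA list and 94 in the control list. Many adjoin, and joining those that touch left 2061 stretches in the Mettl3 shRNA list, of median length 194 bases, and 2402 in the control list, of 188 bases.

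Most 3' UTR peaks of the Mettl3 shRNA list had a control partner, and fewer control peaks had a partner after knockdown. A control 3' UTR peak overlapped, by at least 1 base on the same strand, 3601 of the 4215 Mettl3 shRNA peaks (85.4%, interval 84.3 to 86.5). A Mettl3 shRNA 3' UTR peak overlapped 3642 of the 4764 control peaks (76.4%, 75.2 to 77.6). Over all regions these shares were 83.7% for Mettl3 shRNA peaks and 81.1% for control peaks, and in coding sequence 83.0% for Mettl3 shRNA peaks and 83.5% for control peaks. The 3' UTR and coding-sequence shares count only a partner of the same region, while those over all regions count a partner of any region. With a partner of any region allowed, the 3' UTR shares were 89.8% for Mettl3 shRNA peaks and 80.3% for control peaks. Of the peaks without a 3' UTR partner, 614 in the Mettl3 shRNA list and 1122 in the control list, 185 in each overlapped a peak that the other list labels with another region, as in Chml.

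Peaks without a partner were the weaker ones. Their median log2 fold was 3.48 in the Mettl3 shRNA list and 3.33 in the control list. Peaks with a partner had 3.93 in the Mettl3 shRNA list and 3.91 in the control list. Among the lowest 25% of folds, 74.5% of Mettl3 shRNA peaks (71.7 to 77.1) and 51.2% of control peaks (48.3 to 54.1) had a partner. Among the next 25%, 84.3% of Mettl3 shRNA peaks (82.0 to 86.5) and 73.3% of control peaks (70.7 to 75.8) had one. Among the highest 25%, 93.8% of Mettl3 shRNA peaks and 93.2% of control peaks had one.

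**Figure D1:**
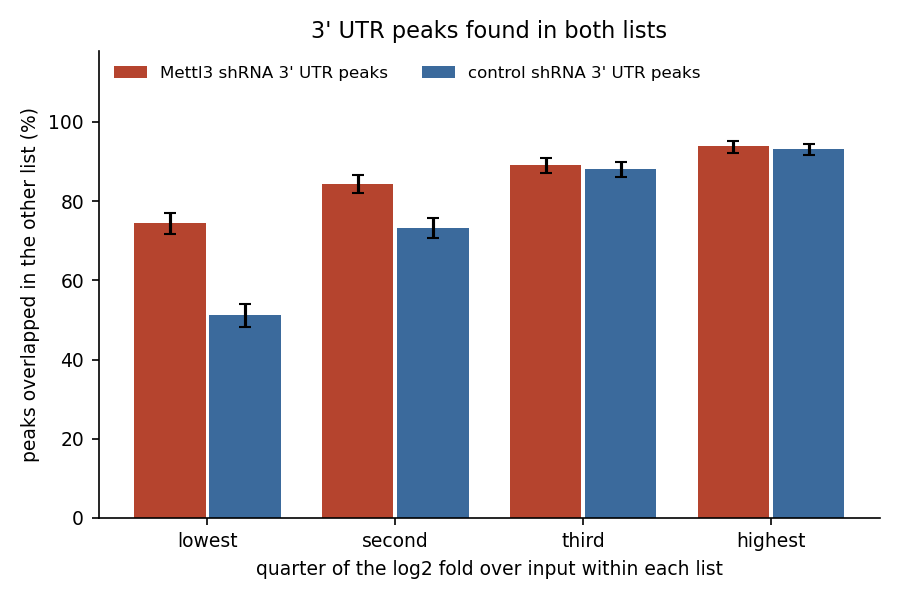
Share of 3' UTR peaks, in percent, overlapped by a 3' UTR peak of the other list, in 4 equal groups by log2 fold over input within each list, with exact 95% intervals as bars. The Mettl3 shRNA and control shares lie apart in the lowest group (74.5% for Mettl3 shRNA and 51.2% for control) and in the next (84.3% for Mettl3 shRNA and 73.3% for control), and close together in the highest (93.8% for Mettl3 shRNA and 93.2% for control).

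Counted by gene, 1410 genes had 3' UTR peaks in both lists, 253 only in the Mettl3 shRNA list and 535 only in the control list. In coding sequence 2691 genes were listed in both, 479 only in the Mettl3 shRNA list and 460 only in the control list. Of the 1410 genes, 871 had fewer listed 3' UTR bases after knockdown (61.8%, 59.2 to 64.3), 524 had more and 15 had as many. Over all regions the share of genes with fewer bases was 56.6%, and for coding sequence alone 52.7% (50.8 to 54.6). The median ratio of bases per gene was small, 0.957 in the 3' UTR and 0.989 in coding sequence. At least a 2-fold reduction in 3' UTR bases was seen in 98 of the 1410 genes and at least a 2-fold gain in 49. In coding sequence a reduction of this size was seen in 134 of 2691 genes and a gain in 137. Over all regions these counts were 245 and 182 of 3936 genes. With a log2 fold of at least 4, the share of genes with fewer 3' UTR bases was 50.3% (45.7 to 54.9) and that for coding sequence 35.8% (32.7 to 39.1). The absolute share thus depended on the threshold, while the 3' UTR stood above coding sequence at either one.

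**Figure D2:**
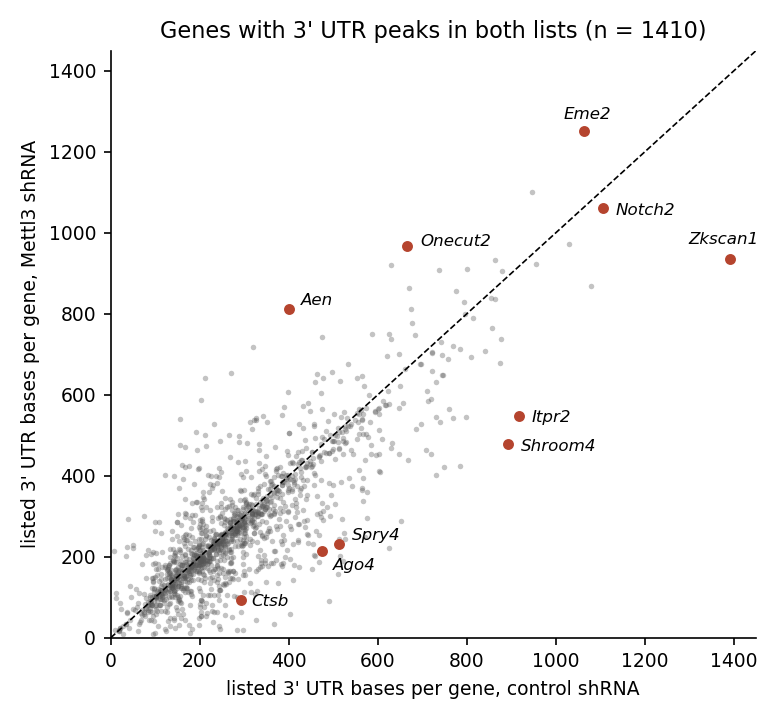
Listed 3' UTR bases per gene in the Mettl3 shRNA list (vertical axis) and the control list (horizontal axis) for the 1410 genes with 3' UTR peaks in both, 1 point per gene, with the line of equal values dashed. Below the line are 871 genes, such as Itpr2 and Shroom4, and above it 524, such as Onecut2 and Aen.

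The same contrast was seen inside genes, where 3' UTR and coding sequence come from the same mRNA. In the 671 genes with both regions in both lists, 244 had fewer 3' UTR and more coding-sequence bases after knockdown, and 132 had the opposite. Both regions had fewer bases in 186 genes and more in 97. The ratio of bases was lower in the 3' UTR than in coding sequence in 392 of the 671 (58.4%, 54.6 to 62.2).

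Folds on bases listed in both libraries gave the same order. The 332158 shared 3' UTR bases had a median log2 difference, Mettl3 shRNA minus control, of 0.00, and 50.4% of them were higher after knockdown. The 912328 shared coding-sequence bases had a median difference of 0.10, and 60.3% were higher after knockdown. Averaged by gene, 638 of 1377 genes were higher after knockdown in the 3' UTR and 1606 of 2618 in coding sequence. Within the 646 genes that had shared bases in both regions, the 3' UTR difference was below the coding-sequence difference in 411 (63.6%, 59.8 to 67.3), by a median of 0.13. With a log2 fold of at least 4 this share was 54.7% (44.8 to 64.4). Only bases above the limit in both lists enter here, so sites that dropped out of a list are not counted. No scaling between the 2 libraries is given, so the level of each difference rests on the authors' folds, while a factor common to a whole library cancels between regions.

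**Figure D3:**
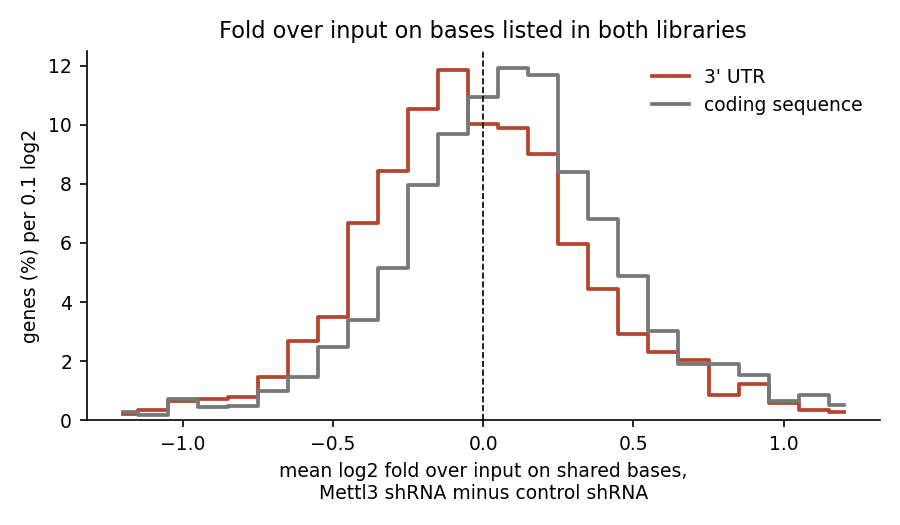
Distribution over genes of the mean log2 fold over input on shared bases, Mettl3 shRNA minus control, in bins of 0.1, for the 3' UTR (1377 genes) and coding sequence (2618 genes). The 3' UTR curve is centred just below 0 and the coding-sequence curve just above it (medians -0.03 for the 3' UTR and 0.10 for coding sequence), and 31 3' UTR and 45 coding-sequence genes lie outside the range shown.

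The stretches also moved at their ends. Of 1536 stretches that paired 1 to 1 between the lists, 907 were shorter after knockdown (59.0%, 56.5 to 61.5), with median lengths of 215.5 bases in the Mettl3 shRNA list and 223 in the control list. The downstream end lay further upstream after knockdown in 1080 (70.3%, 68.0 to 72.6), by a median of 9 bases over all pairs. The upstream end lay further upstream in 843 and further downstream in 632, with a median of 2 bases further upstream. Coding-sequence stretches showed a like displacement of the downstream end, in 65.1% of 3577 pairs with a median of 7 bases, so it was not particular to the 3' UTR.

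**Figure D4:**
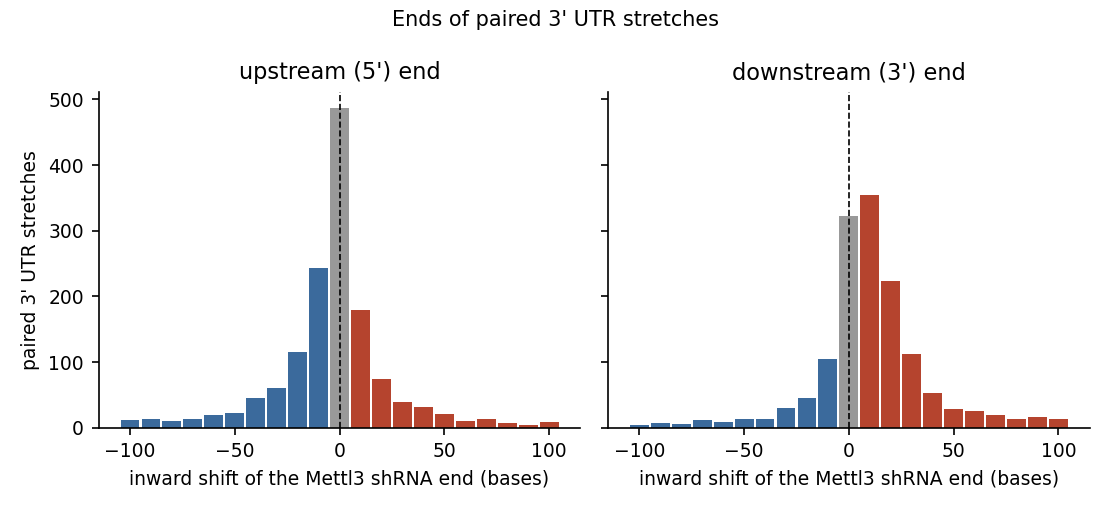
Displacement, in bases, of the upstream and downstream ends of the 1536 paired 3' UTR stretches, where a positive value means that the Mettl3 shRNA end lies inside the control stretch and a negative value outside it. The downstream panel leans to positive values (1080 pairs) and the upstream panel to negative ones (843 pairs).

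Position along the mRNA was read from the coding-sequence peaks of the same gene and list, since stop codons were not located. Of the 3' UTR stretches, 443 in the Mettl3 shRNA list (21.5%) and 516 in the control list (21.5%) adjoined a coding-sequence peak. In genes without any coding-sequence peak lay 991 stretches of the Mettl3 shRNA list (48.1%) and 1181 of the control list (49.2%). Stretches over 1000 bases downstream of the last coding-sequence peak made up 12.7% of each list. Stretches adjoining coding sequence had the largest folds, with a median of their highest peaks of 4.06 in the Mettl3 shRNA list and 4.01 in the control list. Those over 1000 bases downstream had 3.61 in the Mettl3 shRNA list and 3.60 in the control list. The makeup by position was thus alike in the lists, and apart from 22 stretches with a coding-sequence peak further downstream, the partner shares of control stretches ranged from 66.2% to 70.5% over the classes of position.

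The genes with the most listed 3' UTR bases were mostly shared by the libraries. Eme2, which encodes a subunit of a DNA structure-specific endonuclease, had 1251 bases in the Mettl3 shRNA list and 1064 in the control list, between 24888506 and 24892452 of chromosome 17 (mm10). Peg10, a retrotransposon-derived imprinted gene, had 1102 bases in the Mettl3 shRNA list and 947 in the control list. The Notch receptor gene Notch2 had 1061 bases in the Mettl3 shRNA list and 1106 in the control list. Its largest log2 fold was 6.35 in the Mettl3 shRNA list and 5.18 in the control list, on a piece of 5 bases and one of 21 bases. The forkhead factor gene Foxk1 had 972 bases after knockdown and 1030 in the control, and the FERM domain gene Frmd4a 923 after knockdown and 955 in the control. Coverage of these leading 3' UTRs thus lay on either side of equality.

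A few of the genes with the most listed 3' UTR bases parted more. Itpr2 and Shroom4 were named by their control bases, and Onecut2, Tbc1d24 and Gli2 by their Mettl3 shRNA bases. The direction of the difference in these genes thus follows partly from the choice. Zkscan1, a zinc finger gene, had 936 bases in the Mettl3 shRNA list and 1391 in the control list, the most of any gene there. Its longest stretch began at 138104312 of chromosome 5 after knockdown and at 138104149 in the control, and ended within 3 bases in both. The authors' deposited table held 2 Zkscan1 peaks between 138104149 and 138104459, with differences of 1.00 and 0.98. The larger in the authors' deposited table (p = 0.0477) lay at 138104341 to 138104459, within the stretch listed in both libraries. Itpr2, an endoplasmic calcium channel gene, had 549 bases in the Mettl3 shRNA list and 917 in the control list. Shroom4, a cytoskeletal regulator gene, had 478 bases after knockdown and 894 in the control. In the other direction, the homeobox gene Onecut2 had 967 bases in the Mettl3 shRNA list and 667 in the control list, and largest log2 folds of 6.00 after knockdown and 4.50 in the control. Tbc1d24 had 922 bases after knockdown and 629 in the control, and Gli2, a Hedgehog transcription factor gene, 911 after knockdown and 800 in the control. Neither Itpr2 nor Shroom4 had a 3' UTR peak in the authors' deposited table of peaks higher in the control.

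The longest single stretches were 784 bases in the Krüppel-like factor gene Klf13 after knockdown, where the control stretch had 789 bases and ended at the same base, 63890293 of chromosome 7 on the minus strand. In the control list the longest was that of Sel1l, a gene of endoplasmic reticulum-associated degradation, with 875 bases, against 515 bases for its longest stretch after knockdown. The kinase gene Csnk1e had a longest stretch of 457 bases in the Mettl3 shRNA list and 814 in the control list. Sel1l and Csnk1e were named by their control stretches, so a longer control stretch follows partly from the choice.

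The largest folds over input stood on peaks of very different length. Slc35e1, a solute carrier gene, reached 6.96 in the Mettl3 shRNA list and 6.29 in the control list, each on a piece of 6 bases, within a stretch of 272 bases after knockdown and 325 in the control. Kcnj4, a potassium channel gene, reached 6.91 after knockdown and 5.39 in the control, and the ephrin gene Efnb2 6.77 after knockdown and 5.09 in the control. The ubiquitin ligase adaptor gene Spop reached 6.75 in the Mettl3 shRNA list and 5.80 in the control list. The calcium sensor gene Stim2 had 4.92 in the Mettl3 shRNA list and 6.58 in the control list. Sox9, a transcription factor gene of the cartilage lineage, reached 6.03 in each. The ubiquitin ligase gene Trim62 reached 3.70 after knockdown and 6.47 in the control, and the kinase gene Dclk1 3.44 after knockdown and 6.44 in the control. The control peak of Dclk1 with this fold had 215 bases. Kcnj4, Efnb2 and Spop were chosen by their folds in the Mettl3 shRNA list, and Stim2, Trim62 and Dclk1 by their control folds. The direction of the difference in these genes thus follows partly from the choice. The control folds had a −log10 p of 23.9 in Trim62 and 23.3 in Dclk1, where 62.6% of control 3' UTR peaks stood at the limit of 400, so the highest folds included weakly supported ones.

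Genes with 3' UTR peaks in 1 library only had small ones as a rule. The 253 genes of the Mettl3 shRNA list had a median of 140 bases and the 535 of the control list 142, with a median largest log2 fold of 3.49 after knockdown and 3.42 in the control. No peak of any region was listed in the other library for 115 of the 253 and 279 of the 535. Among the largest of the Mettl3 shRNA list were Rab36 with 449 bases, the wybutosine synthesis gene Tyw3 with 388, the copper transporter gene Slc31a2 with 382 and the neurofilament gene Nefm with 351. Opa3, Cacna2d1 and Tmem119 also had no control 3' UTR peak but had coding-sequence peaks in the control. Among the largest of the control list were 6430548M08Rik with 746 bases, the adherens junction gene Plekha7 with 502, the growth factor gene Pdgfc with 489 and the agrin receptor gene Lrp4 with 459. Plekha7, Pdgfc and Lrp4 had no coding-sequence peak in either list, whereas 6430548M08Rik had 207 coding-sequence bases in the Mettl3 shRNA list and 225 in the control list. Over all regions 6430548M08Rik had 945 listed bases in the Mettl3 shRNA list and 971 in the control list. All of its bases in the Mettl3 shRNA list thus carry a region label other than 3' UTR.

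**Figure D5:**
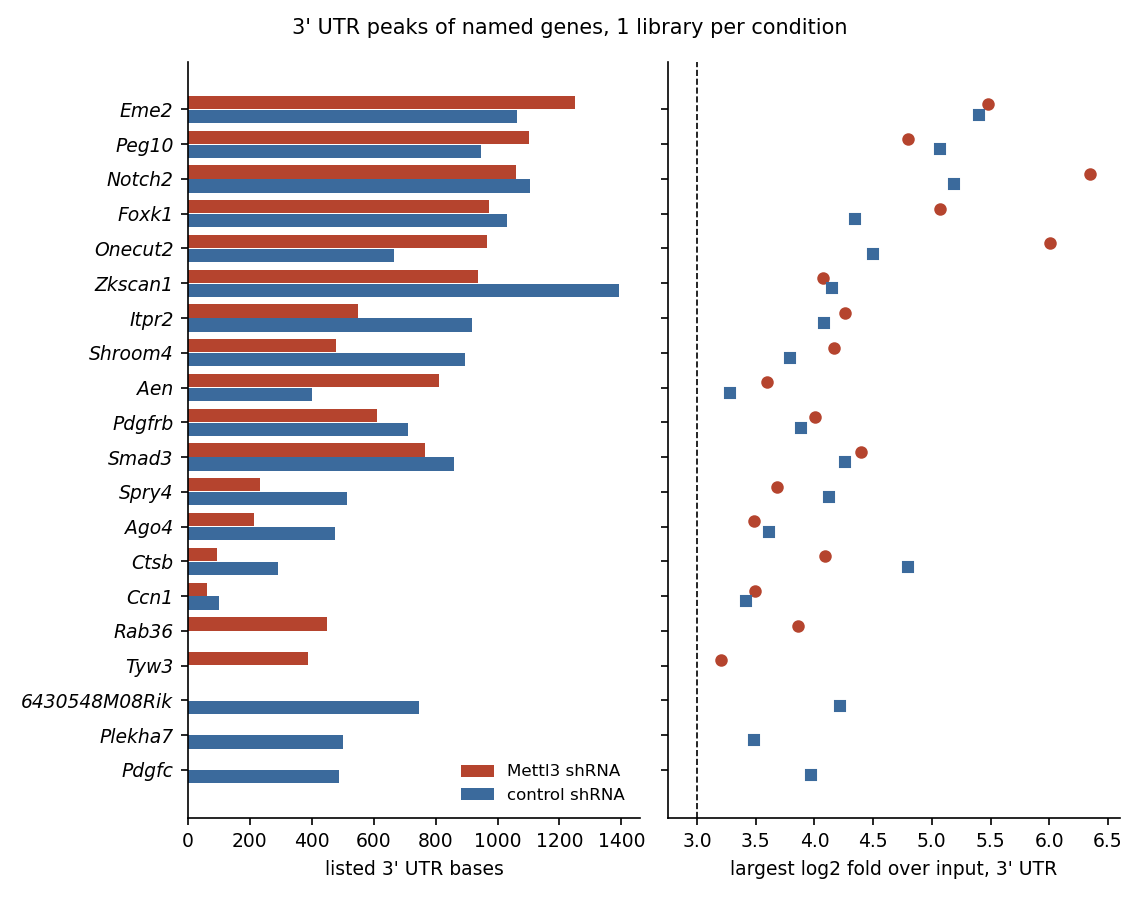
Left, listed 3' UTR bases of 20 genes in the Mettl3 shRNA list (upper bar) and the control list (lower bar). Right, the largest log2 fold over input among the 3' UTR peaks of the same genes, with the listing limit of 3 dashed. Zkscan1 has 936 bases after knockdown and 1391 in the control, and Onecut2 has 967 after knockdown and 667 in the control. The last 5 genes have 3' UTR peaks in 1 library only.

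The authors' comparison of the 2 libraries, control over Mettl3 knockdown, lists only peaks higher in the control and so says nothing of peaks higher after knockdown. The authors' deposited table held 1094 peaks in the 3' UTRs of 729 genes, with a median log2 difference of 0.76 and quartiles of 0.63 and 0.97. Of these, 440 (40.2%) had p of at most 0.001 in the authors' deposited table, against 27.2% of its coding-sequence peaks. Of the 1094 peaks of the authors' deposited table, 844 (77.1%) lay over neither list. This share was near that of its coding-sequence peaks (78.8%) and of its 1851 peaks of all regions (77.0%). Of the 844, 638 lay in genes with no listed 3' UTR peak. The other 206 lay a median of 65 bases from a listed 3' UTR peak of their gene, and 149 of them within 200 bases. The authors' deposited table thus touched the flanks of listed 3' UTR stretches as well as other 3' UTRs.

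Peaks of the authors' deposited table overlapped 110 of the Mettl3 shRNA 3' UTR peaks (2.61%, 2.15 to 3.14) and 256 of the control 3' UTR peaks (5.37%, 4.75 to 6.05). Over all regions, the authors' deposited table overlapped 1.09% of Mettl3 shRNA peaks and 2.8% of control peaks. In coding sequence, the authors' deposited table overlapped 0.557% of Mettl3 shRNA peaks and 1.85% of control peaks. By gene, 243 of the 1945 genes with a control 3' UTR peak also held a 3' UTR peak of the authors' deposited table, or 12.5%, against 12.3% when peaks of any region were counted. Control 3' UTR peaks under a 3' UTR peak of the authors' deposited table had a partner after knockdown in 132 of 249 (53%, 46.6 to 59.3), against 3510 of the other 4515 (77.7%, 76.5 to 78.9). In coding sequence these shares were 67 of 160 (41.9%) and 7281 of 8638 (84.3%), so the contrast was not particular to the 3' UTR. Among the 1410 genes listed in both libraries, 153 held a 3' UTR peak of the authors' deposited table, and 111 of those (72.5%, 64.8 to 79.4) had fewer bases after knockdown, against 60.5% of the other 1257. These readouts share the same libraries and so do not check each other.

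The largest 3' UTR differences at p of at most 0.001 reached 1.84 in the authors' deposited table. Mob1b, a Hippo pathway adaptor gene, had 2 peaks with differences of up to 1.84 (p = 7.00e-05) in the authors' deposited table, between 88756423 and 88756677 of chromosome 5, and no listed peak over input. Mettl13, named Eef1aknmt there, had 1.73 in the authors' deposited table, in a peak over no listed 3' UTR peak. The gene had 0 listed 3' UTR bases after knockdown and 93 in the control. The ribosomal S6 kinase gene Rps6ka3 had 1.66 (p = 3.35e-05) in the authors' deposited table, over its only control 3' UTR peak, of 149 bases and at 3.13 over input, and no 3' UTR peak after knockdown. Exosc1, a subunit gene of the RNA exosome, had 1.63 in the authors' deposited table beside a control peak of 73 bases at 3.01, and none after knockdown. Acad9, an acyl-CoA dehydrogenase family gene, had 1.54 (p = 8.82e-06) in the authors' deposited table, also in a peak over no listed 3' UTR peak. Its listed bases, 101 in the Mettl3 shRNA list and 103 in the control list, lay elsewhere in the 3' UTR.

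Some genes held many 3' UTR pieces in the comparison. Eef2, a translation elongation factor gene, had 14 peaks with differences of 0.51 to 0.70 in the authors' deposited table and no listed peak over input in either list. Dusp6, an ERK phosphatase gene, had 8 peaks with differences of 0.55 to 1.00 in the authors' deposited table and 0 listed 3' UTR bases after knockdown and in the control. Ctsb, the cathepsin B protease gene, had 94 listed bases after knockdown (63142668 to 63142761 of chromosome 14) and 292 in the control (63142471 to 63142762). Its 13 peaks in the authors' deposited table had differences of 0.53 to 0.73 and began at 63142668. The additional control bases of Ctsb upstream of 63142668 thus carried no peak of the authors' deposited table. Ccn1, a matricellular YAP target gene, had 60 listed bases after knockdown and 101 in the control, with 13 peaks of 0.52 to 0.68 in the authors' deposited table. Ipo9, a nuclear import receptor gene, had 285 bases after knockdown and 258 in the control, and 8 peaks of 0.64 to 1.06 in the authors' deposited table all overlapped peaks of both lists over input. In Ipo9 the largest log2 fold over input was 4.26 in the Mettl3 shRNA list and 5.13 in the control list. A higher control fold and a longer listed stretch therefore did not always go together.

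Of 25 genes for writers and readers of m6A, 1 had a 3' UTR peak in the Mettl3 shRNA list and 4 in the control list, and none had a 3' UTR peak in the authors' deposited table. Of the 25, 12 had a peak of any region in at least 1 of the lists over input. Among all 5457 genes with such a peak, 1663 had a 3' UTR peak in the Mettl3 shRNA list and 1945 in the control list. Wtap, the adaptor of the methyltransferase, had 196 bases in the Mettl3 shRNA list and 199 in the control list. The reader gene Ythdf2 had 0 bases after knockdown and 167 in the control, at a log2 fold of 3.15. Cbll1 had 0 bases after knockdown and 54 in the control, at 3.14, and Virma 0 after knockdown and 49 in the control, at 3.32, all close to the limit. The coding-sequence stretches of Ythdf2 had 687 bases in the Mettl3 shRNA list and 684 in the control list.

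Among genes for proteins that act on 3' UTRs, the changes in listed bases went in both directions. Of 24 cleavage and polyadenylation factor genes, 5 had a 3' UTR peak in the Mettl3 shRNA list and 4 in the control list. Of those in both, Wdr82 had 39 bases in the Mettl3 shRNA list and 230 in the control list, and Cpsf7 had 23 after knockdown and 121 in the control. Wdr33 had 68 bases after knockdown and 71 in the control, and Cstf1 had 110 after knockdown and 64 in the control. Of 41 genes of microRNA silencing and deadenylation, 10 had a 3' UTR peak in each list, 9 of them in both. Of these 9, 6 had fewer bases after knockdown and 3 more, where 61.8% of all genes had fewer. The Argonaute gene Ago4 had 214 bases in the Mettl3 shRNA list and 476 in the control list, and the deadenylase subunit gene Pan3 had 570 after knockdown and 390 in the control. The helicase gene Ddx6 had 562 bases after knockdown and 563 in the control. Of 40 genes for AU-rich element and 3' UTR binding proteins, 4 had a 3' UTR peak in each list. Among them Zfp36l2, which promotes decay of AU-rich mRNAs, had 235 bases in the Mettl3 shRNA list and 238 in the control list.

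Genes of the p53 response carried 3' UTR peaks in both libraries. Of 50 p53 targets, the same 13 had a 3' UTR peak in each list. By listed bases, 8 had fewer after knockdown and 5 more, near the 61.8% of all genes. A 3' UTR peak of the authors' deposited table was held by 6 of the 13, against 243 of the 1945 genes with a control 3' UTR peak. This contrast was not tested. The exonuclease gene Aen had 812 bases in the Mettl3 shRNA list and 400 in the control list, with largest log2 folds of 3.60 after knockdown and 3.28 in the control. The cytokine gene Lif had 382 bases after knockdown and 491 in the control, and the kinase gene Plk2 had 405 after knockdown and 415 in the control. The metabolic stress gene Sesn2 had 343 bases after knockdown and 415 in the control. Phlda3, an inhibitor of Akt, had 367 bases in the Mettl3 shRNA list and 358 in the control list. Of 30 p53 regulators, 6 had a 3' UTR peak in each list, 5 of them in both. Of these 5, 3 had fewer bases after knockdown and 2 more, where 61.8% of all genes had fewer. Of 58 early response and AU-rich mRNAs, 26 had a 3' UTR peak in the Mettl3 shRNA list and 29 in the control list. Of the 25 in both, 18 had fewer bases after knockdown and 7 more, where 61.8% of all genes had fewer, and their median log2 ratio was -0.09. Ier5 had 567 bases in the Mettl3 shRNA list and 648 in the control list, and Ier2 had 519 after knockdown and 511 in the control. The small GTPase gene Rhob had 459 bases after knockdown and 420 in the control, and the angiogenic factor gene Vegfa had 391 after knockdown and 432 in the control.

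Of 65 genes of the Wnt, Notch, TGF-beta and Hippo pathways, 18 had a 3' UTR peak in each list. Of the 16 in both, 13 had fewer bases after knockdown and 3 more, where 61.8% of all genes had fewer. Their median log2 ratio was -0.26 against -0.06 over all genes. Smad3, the TGF-beta effector gene, had 765 bases in the Mettl3 shRNA list and 858 in the control list, and its repressor gene Ski had 299 after knockdown and 415 in the control. The Hippo coactivator gene Yap1 had 411 bases in the Mettl3 shRNA list and 372 in the control list. Of 47 ERK feedback and MAP kinase genes, 14 had 3' UTR peaks in both lists. Of these, 8 had fewer bases after knockdown and 6 more, where 61.8% of all genes had fewer. Their median log2 ratio was -0.08. The feedback inhibitor gene Spry4 had 231 bases in the Mettl3 shRNA list and 514 in the control list, and the Ras GTPase-activating gene Rasa1 had 280 after knockdown and 423 in the control. The ERK phosphatase gene Dusp5 had 431 bases in the Mettl3 shRNA list and 333 in the control list.

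Apoptosis genes had 3' UTR peaks in 6 of 38 members in the Mettl3 shRNA list and 9 in the control list, with 1334 bases in all after knockdown and 2085 in the control. Over all genes, 1663 had a 3' UTR peak in the Mettl3 shRNA list and 1945 in the control list, with a base ratio of 0.860. Of the 5 apoptosis genes in both lists, 4 had fewer bases after knockdown and 1 more, where 61.8% of all genes had fewer. The p53-induced BH3-only gene Bbc3 had 192 bases in the Mettl3 shRNA list and 346 in the control list, while its largest log2 fold was 4.87 after knockdown and 4.83 in the control. The BH3-only gene Bcl2l11 and the kinase gene Ripk1 each had 0 bases in the Mettl3 shRNA list, while Bcl2l11 had 237 in the control list, at 3.27, and Ripk1 had 216, at 3.28. Bcl2, the anti-apoptotic founder of the family, had 503 bases in the Mettl3 shRNA list and 573 in the control list. Of 61 DNA damage and repair genes, 6 had a 3' UTR peak in the Mettl3 shRNA list and 7 in the control list. In coding sequence 23 had one after knockdown and 21 in the control. Over all genes too, more had a peak in coding sequence, 3170 in the Mettl3 shRNA list and 3151 in the control list. For the 3' UTR these counts were 1663 in the Mettl3 shRNA list and 1945 in the control list. The gene lists were chosen with results of these libraries known, and their counts are descriptions.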

How the data were processed

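In m6A-eCLIP libraries of E1A;HRasV12 MEFs, 1 per condition, the authors deposited 1 list of peaks per library, each peak with its log2 fold relative to input and its −log10 p, capped at 400. Their deposited comparison list gives the log2 difference (control over Mettl3 knockdown) and the p-value of each peak. UMI-tools 0.5.1, cutadapt 2.7 and build mm10 were named, per the submitters' processing notes. The sources used here name no aligner or peak caller. Coordinates are printed 1-based. Region and gene are the authors' annotation, with Ensembl versions removed, and the 38 symbols joined by a bar in the Mettl3 shRNA list and 46 in the control list kept as 1 gene.

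Peaks were compared by same-strand overlap of at least 1 base, and bases per gene, joined stretches and length-weighted folds on shared bases were computed with Python 3.11.15, pandas 2.3.3, numpy 2.4.6 and scipy 1.17.1. The overlap code was tested on simulated peaks. A stretch joins touching peaks of 1 gene and region. Shares carry exact Clopper-Pearson 95% intervals, which treat peaks as independent although many adjoin. The members and the 22 gene lists, markers included, were chosen with earlier results of these data known. Named genes had the most 3' UTR bases, the longest stretches or the largest folds of a list. Others had 3' UTR peaks in 1 library only or led the comparison list. The rest were up to 6 members of each gene list ranked by control 3' UTR bases. Genes whose sites are printed followed from RefSeq window coverage.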

Additional observations from a re-analysis of the deposited data

How the results depend on the processing

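Of 65 values under alternative settings, 20 stayed within their interval or within 1.5 times the count and 45 moved. A reversal could be recorded only for base ratios, the gene share, stretch ends and folds within genes, and 0 were recorded. The settings for base ratios, the gene share, stretch ends and folds within genes were chosen after seeing the data. The cause of each move was not tested, except that stricter thresholds leave fewer peaks.

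When log2 folds had to reach 4, the 3' UTR share was 28.2% of Mettl3 shRNA and 35.2% of control peaks, and 73.7% of Mettl3 shRNA and 69.7% of control 3' UTR peaks were partnered. Median log2 folds were 4.60 for Mettl3 shRNA and 4.48 for control, and median lengths 40 bases for Mettl3 shRNA and 49 for control. Peaks of the authors' deposited table overlapped 4.34% of control peaks, and 475 genes were listed in both and 289 in the control only. Fewer bases after knockdown were seen in 50.3% of genes, a downstream end further upstream in 58.9% of pairs, and a 3' UTR fold difference below that of coding sequence in 54.7% of genes (44.8 to 64.4).

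With only peaks at the p limit, the 3' UTR share was 31.4% for Mettl3 shRNA and 34.5% for control, the partner share 89.5% for Mettl3 shRNA and 81.2% for control, and 7.71% of control peaks overlapped the authors' deposited table. Median log2 folds were 4.07 for Mettl3 shRNA and 3.94 for control, and median lengths 51 bases for Mettl3 shRNA and 65 for control. Genes in both numbered 798, in the Mettl3 shRNA list only 114 and in the control only 272, with fewer bases after knockdown in 58.9%.

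With adjoining peaks joined, the 3' UTR share was 24.3% for Mettl3 shRNA and 27.5% for control, the partner share 79.3% for Mettl3 shRNA and 67.6% for control, and median lengths 194 bases for Mettl3 shRNA and 188 for control. The overlap with the authors' deposited table was then 6.24% and the median difference 0.80 in the authors' deposited table. Overlap of at least 50% of a peak gave partner shares of 82.1% for Mettl3 shRNA and 72.3% for control, and 4.72% for the authors' deposited table. A partner in any region gave 89.8% for Mettl3 shRNA and 80.3% for control. Weighted by length, the 3' UTR share was 22.8% for Mettl3 shRNA and 25.4% for control. At a difference of at least 1 the authors' deposited table held 237 3' UTR peaks with a median of 1.21, and at p of at most 0.001 it held 440.

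No paired analysis was possible because each condition had 1 library. The share of peaks with a DRACH motif was not run, since no genome sequence was used here. Read depth was not analysed here.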

Other observations

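The 420 zinc finger genes named Zfp formed the largest gene list used here. Of them, 295 had a peak of any region in at least 1 list over input. Of all 5457 genes with such a peak, 1663 had a 3' UTR peak in the Mettl3 shRNA list and 1945 in the control list. The Zfp list had 91 genes with a 3' UTR peak in the Mettl3 shRNA list and 105 in the control list. These genes had 23947 listed 3' UTR bases after knockdown and 27131 in the control. Of the 78 in both lists, 48 had fewer 3' UTR bases after knockdown and 30 more, a share close to that of all genes. Zfp704 had 534 bases in the Mettl3 shRNA list and 740 in the control list, and Zfp451 had 455 after knockdown and 719 in the control. Zfp41 had 906 bases after knockdown and 879 in the control. Of 394 solute carrier genes, 80 had a peak of any region in at least 1 list over input. A 3' UTR peak was held by 30 of these genes in the Mettl3 shRNA list and 29 in the control list. Their 3' UTR peaks covered 7404 bases after knockdown and 7349 in the control. Slc22a23, an organic ion transporter family gene, had 738 bases in the Mettl3 shRNA list and 631 in the control list, and the glucose transporter gene Slc2a1 had 312 after knockdown and 330 in the control. None of the 54 ribosomal protein genes had a 3' UTR peak in either list, and 1 of the 54 had a peak of any region.

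Chromatin modifiers had a 3' UTR peak in 15 genes of the Mettl3 shRNA list and 18 of the control list, of 64. Of the 13 in both, 10 had fewer bases after knockdown and 3 more, where 61.8% of all genes had fewer. The demethylase gene Kdm4b had 500 bases after knockdown and 505 in the control. Of 71 ubiquitin ligase genes, 13 had a 3' UTR peak after knockdown and 15 in the control. The p53-related Rnf144b had 750 bases in the Mettl3 shRNA list and 626 in the control list, and Fbxw7, the substrate receptor that targets Myc and Notch, had 202 after knockdown and 332 in the control. The largest log2 fold of Fbxw7 was 3.39 after knockdown and 5.33 in the control. Of 52 matrix and fibroblast genes, 11 had a 3' UTR peak after knockdown and 12 in the control. A peak of any region over input was listed for 45 chromatin modifiers, 42 ubiquitin ligase genes and 21 matrix and fibroblast genes. Among all 5457 genes with such a peak, 1663 had a 3' UTR peak after knockdown and 1945 in the control. The fibronectin receptor gene Itga5 had 376 bases in the Mettl3 shRNA list and 542 in the control list, and Pdgfrb had 610 after knockdown and 710 in the control. Pdgfra had 416 bases after knockdown and 371 in the control.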
